A study of Caenorhabditis elegans with 9 samples.

Results

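The genes described here are 52 cuticle collagen genes of Caenorhabditis elegans that carry col- symbols, among them the adult collagen gene col-19 (ZK1193.1) and col-7 (C15A11.5). They were named as a list of sequence names, selected on the coverage values of these same libraries, and all 52 were found among the 43898 loci of the deposited table, which holds 156 col- genes in all. Which contrasts entered the choice is not recorded, so the levels and changes of these genes are given as a description, and the tests are quoted as calls beside the share of all loci called. RNA of whole young adults was sequenced in 9 libraries. They comprise 2 libraries of emr-1(gk119), a deletion of the gene for the inner nuclear membrane protein emerin, in strain BN20. There are 2 libraries of lem-2(tm1582), an allele of the gene for the related membrane protein LEM-2, in strain BN19. A further 2 libraries are labelled lem-2(tm1582) emr-1(RNAi), from animals fed bacteria that made double-stranded RNA of emr-1, and are called the double libraries below. The labels give BN19 for these too. The study's methods count a further strain among the sequenced samples, so BN19 may not hold for both lem-2(tm1582) groups. The reference is 3 libraries of wild type (N2). Cultures of about 40000 synchronized larvae were grown in liquid for 53 h at 20 °C with feeding bacteria and 1 mM IPTG, and they were enriched for adults without embryos rather than made up of them alone. The animals carry each allele in every tissue, and each genotype was represented by a single strain.

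The cuticle of the nematode is an extracellular coat made mostly of small collagens, which the epidermis secretes anew at each molt. Each collagen has short Gly-X-Y repeat blocks, is trimmed by proteases and is cross-linked to its neighbours, and many of the genes are transcribed in pulses that peak in the hours before a molt. The adult cuticle differs in composition from the larval ones. The gene col-19 is the standard marker of this change, since the zinc finger protein LIN-29 turns it on at the last molt, and it stays on in the adult. A whole-animal culture that is slightly younger or older, or less synchronous, therefore holds different amounts of many cuticle collagen mRNAs.

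Values are normalized coverage, the typical number of reads over a base of the transcript, so levels of different genes are on a per-base scale. Differences were tested with limma on log2(coverage + 1), and a gene is called where its Benjamini-Hochberg adjusted p over the 19564 loci tested was under 0.05. Read totals are not used here and the depth is unknown, so precision rests on the spread between libraries. Nothing in the labels says which libraries came from separate cultures, and the tests then measure the spread between these libraries, which may be partly technical.

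The check of the targeted genes divided the labels. Coverage of emr-1 was 0 and 1.5 in emr-1(gk119), against 52.1, 44.6 and 60.5 in wild type. In the double libraries it was 135 and 73.5, against 44.5 and 44.4 in lem-2(tm1582), so the libraries labelled emr-1(RNAi) did not have lower emr-1 coverage. Whether reads from the fed double-stranded RNA added to it was not tested. The study checked the RNAi by the death of embryos from part of the culture, a measure outside these data. Coverage of lem-2 was 54 and 53.2 in lem-2(tm1582) and 28.9 and 30.5 in the double libraries, against 32.2, 29.3 and 39.0 in wild type, so the transcript gave no sign of the allele. The upper quartile of coverage was 16.3 to 16.9 in the double libraries, 13.6 to 14.4 in the emr-1(gk119) libraries and 13.6 to 13.9 in those of lem-2(tm1582), against 12.06 to 12.67 in wild type. The median change of all loci in the double libraries was 0.35 on the log2 scale. It was 0.01 for emr-1(gk119) and 0.06 for lem-2(tm1582), and the changes of the collagen genes are to be read beside these shifts.

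Wild-type replicate 3 stood apart from its group in these genes. It had the lowest wild-type value in 31 of the 51 collagen genes tested and the highest in 14. The median absolute log2 difference over the 51 genes was 0.58 and 1.04 between replicate 3 and wild-type replicates 1 and 2, against 0.28 between replicates 1 and 2. Over all loci the same 3 differences were 0.31, 0.35 and 0.27. The pairs of mutant libraries differed by 0.25 in emr-1(gk119), by 0.19 in lem-2(tm1582) and by 0.32 among the double libraries. Counts of calls are therefore also given without wild-type replicate 3.

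The 52 genes lie on all chromosomes, with 19 on V, 10 each on II and IV, 6 on III, 4 on X and 3 on I. They are compact genes with 870 to 1569 exonic bases (median 1002), and 36 of them have 2 exons. Most were abundant, with a median of 361 for the mean coverage over the 9 libraries against 12.8 for all loci tested, and 40 had a mean of at least 100. The gene not tested was col-105, with a mean under 1, whose coverage was 1 in each mutant library and 0 in each wild-type library. The highest means were those of col-12 (1300), col-13 (1269), col-139 (1104), col-73 (1069) and col-19 (968).

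Summed over the 52 genes, coverage was 34459 and 38796 in the emr-1(gk119) libraries, 20026 and 19435 in lem-2(tm1582), and 21236 and 18243 in the double libraries, against 13507, 15395 and 14381 in wild type. Every mutant library was thus above each wild-type library, and the 2 emr-1(gk119) libraries lay above all others. As a share of the coverage of all loci this was 2.34% and 2.74% in the emr-1(gk119) libraries, 1.34% and 1.32% in lem-2(tm1582), and 1.35% and 1.16% in the double libraries, against 0.969%, 1.09% and 1.01% in wild type. In whole animals, fewer cells of a type and less RNA per cell cannot be told apart, and the same holds for more cells and more RNA.

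**Figure D1:**
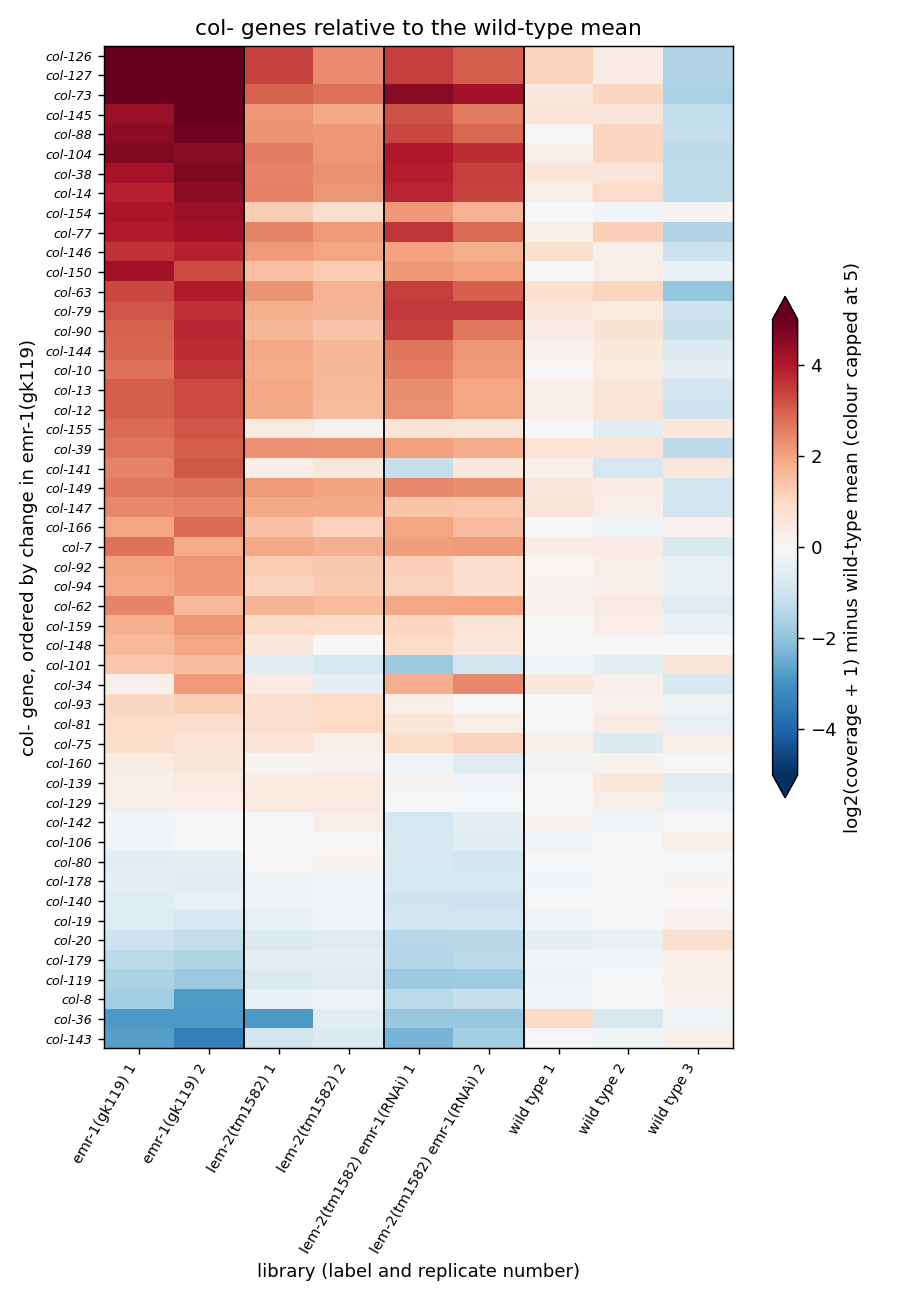
Each row is 1 of the 51 col- genes tested and each column 1 library, and the colour gives log2(coverage + 1) minus the wild-type mean, capped at 5. Most rows are red in both emr-1(gk119) libraries and paler in lem-2(tm1582), a block of rows at the bottom is blue in emr-1(gk119) and in the double libraries, and wild-type replicate 3 differs from the other wild-type libraries in many rows.

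The most common order of the group means, found in 23 of the 51 genes, was emr-1(gk119) highest, then the double libraries, then lem-2(tm1582), with wild type lowest. In a further 8 genes lem-2(tm1582) lay above the double libraries and the ends of the order were the same. Wild type was highest in 10 genes, and in these lem-2(tm1582) came next. Wild type was thus lowest in a large set of 33 genes and highest in a small set of 10, with col-19 in it, and lay between the mutant groups in the other 8.

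Adult col-19 belonged to the small set. The gene lies on chromosome X at 421707 to 422691 (WBcel235) and overlaps ZK1193.2 on the other strand over 985 bases, a gene whose mean coverage was 21.2. Coverage of col-19 was 800 and 719 in the emr-1(gk119) libraries, 984 and 1083 in lem-2(tm1582), and 655 and 656 in the double libraries, against 1122, 1226 and 1462 in wild type. All mutant libraries lay below all wild-type libraries, and the group means ran down from wild type over lem-2(tm1582) and emr-1(gk119) to the double libraries. The lem-2(tm1582) and wild-type values nearest to each other, 1083 and 1122, lay closer together than the wild-type replicates did. The log2 change against wild type was -0.73 ± 0.15 (SE) in emr-1(gk119) and -0.95 ± 0.15 in the double libraries, both called lower, and -0.29 ± 0.15 in lem-2(tm1582), not called. Without wild-type replicate 3 the changes were -0.63 and -0.84 in the groups with a call, and both were called.

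The 5 genes most like col-19 over the 9 libraries, by Pearson correlation of log2(coverage + 1), were col-119 (0.98), col-178 (0.98), col-179 (0.97), col-20 (0.94) and col-140 (0.93). These correlations run over libraries that share groups and normalization and are a description. Coverage of col-119 (C53B4.5) was 485 and 408 in the emr-1(gk119) libraries, 896 and 928 in lem-2(tm1582), and 417 and 429 in the double libraries, against 1235, 1382 and 1849 in wild type. Its groups were stepped, with both lem-2(tm1582) libraries between wild type and the other mutants. Coverage of col-179 was 289 and 256 in the emr-1(gk119) libraries, 537 and 535 in lem-2(tm1582), and 268 and 290 in the double libraries, against 645, 673 and 914 in wild type. The log2 change in emr-1(gk119) was -1.72 ± 0.19 for col-119 and -1.43 ± 0.17 for col-179, and in the double libraries -1.79 ± 0.19 and -1.39 ± 0.17, all called lower.

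The steepest drop among these genes was that of col-143 (T15B7.3). Its coverage was 27.8 and 16.7 in the emr-1(gk119) libraries, 100 and 116 in lem-2(tm1582), and 37.9 and 58.7 in the double libraries, against 182, 167 and 234 in wild type. The 4 groups did not overlap. The log2 change was -3.10 ± 0.28 in emr-1(gk119) and -2.0 ± 0.28 in the double libraries, both called lower, and -0.83 ± 0.28 in lem-2(tm1582), not called. Coverage of col-8 was 106 and 47.9 in the emr-1(gk119) libraries, 261 and 291 in lem-2(tm1582), and 134 and 157 in the double libraries, against 312, 325 and 404 in wild type. Here too no groups overlapped, and the higher emr-1(gk119) library had more than 2 times the coverage of the lower. Coverage of col-20 was 467 and 399 in the emr-1(gk119) libraries, 578 and 609 in lem-2(tm1582), and 355 and 367 in the double libraries, against 688, 750 and 1652 in wild type. The spread of col-20 came from wild-type replicate 3: its change in emr-1(gk119) was -1.13 ± 0.35, not called, and without that library -0.73, called lower.

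Among the lower genes, col-36 was near the floor, with 0 and 0 in the emr-1(gk119) libraries, 0 and 4 in lem-2(tm1582), and 1 and 1 in the double libraries, against 13.8, 3.22 and 5.33 in wild type. It was called lower in emr-1(gk119) with all libraries and not without wild-type replicate 3, and its fitted change depended on the pseudocount. The others called lower in emr-1(gk119) changed less, with log2 values of -0.50 for col-80, -0.51 for col-178 and -0.52 for col-140. In the double libraries col-142 (-0.68) and col-106 (-0.64) were called lower as well. Without wild-type replicate 3, col-178 was not called in emr-1(gk119) (-0.44), nor col-142 in the double libraries (-0.66).

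**Figure D2:**
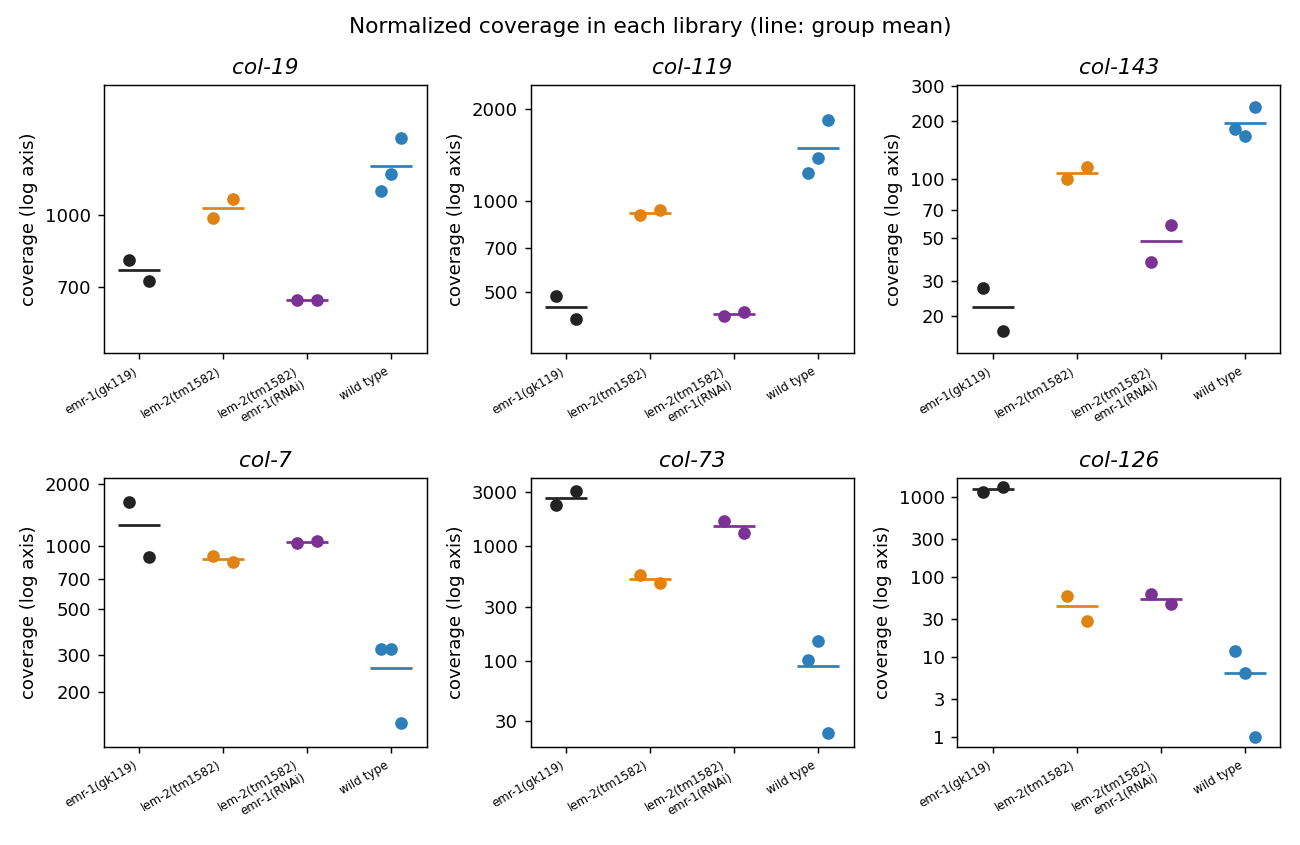
Normalized coverage on log axes for 6 genes, with 1 point per library and a line at the group mean. In the upper row (col-19, col-119, col-143) wild type is highest, and in the lower row (col-7, col-73, col-126) it is lowest, with a wild-type value of 1 for col-126 in replicate 3.

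The gene col-7 belonged to the large set. Its coverage was 1632 and 889 in the emr-1(gk119) libraries, 901 and 842 in lem-2(tm1582), and 1042 and 1061 in the double libraries, against 320 and 321 in wild-type replicates 1 and 2. In wild-type replicate 3 it was 0.443 times the mean of those 2, and the wild-type mean was 261 ± 103 (SD, n = 3). All 6 mutant libraries lay above the wild type, by a log2 change of 2.30 ± 0.40 for emr-1(gk119), 1.83 ± 0.40 for lem-2(tm1582) and 2.1 ± 0.40 for the double libraries, of which the first and the last were called higher. The mutant groups were not ordered, since the lower emr-1(gk119) library was within the range of lem-2(tm1582). Over the 9 libraries col-7 was most like its neighbour col-62 (1.0), then col-149 (0.98), col-104 (0.95), col-73 (0.95) and col-77 (0.94), and its correlation with col-19 was -0.83.

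Of the 51 genes, 34 in emr-1(gk119) were called higher and 9 lower, where 10.4% of all loci were called higher and 6.27% lower. Without wild-type replicate 3 the counts were 33 and 8, of which 33 and 7 were among those called with all libraries. They were 25 and 5 without emr-1(gk119) replicate 1, 25 and 6 without replicate 2 of that group, 32 and 6 without wild-type replicate 1, 33 and 6 without wild-type replicate 2, and 14 and 3 with these 2 groups fitted alone. The changes ran from -3.10 to 7.77 on the log2 scale with a median of 2.30. Both emr-1(gk119) libraries lay above every wild-type library in 36 genes and below every one in 10, where the share of all loci was 22.2% and 19.5%.

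The pair col-126 (F54D1.2) and col-127 (F54D1.3) had the widest gap. Coverage of col-126 was 1174 and 1335 in the emr-1(gk119) libraries, 59.2 and 28.2 in lem-2(tm1582), and 62.4 and 45.9 in the double libraries, against 11.9, 6.33 and 1.00 in wild type. The emr-1(gk119) libraries stood more than 10 times above any other library, a log2 change of 7.77 ± 0.72, or 7.01 without wild-type replicate 3. The 2 genes lie 510 bases apart on opposite strands of chromosome IV and had identical coverage in 7 of the 9 libraries, with a largest difference of 1.42%. Whether reads were shared between them was not tested, so both values are uncertain, and the counts given here take them as 2 genes.

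Coverage of col-73 (F11G11.12) was 2279 and 3026 in the emr-1(gk119) libraries, 560 and 482 in lem-2(tm1582), and 1678 and 1320 in the double libraries, against 102, 149 and 23.5 in wild type. The 4 groups did not overlap, with changes of 5.18 ± 0.68, 2.84 ± 0.68 and 4.36 ± 0.68 against wild type. Coverage of col-145 was 166 and 289 in the emr-1(gk119) libraries, 36.9 and 30.1 in lem-2(tm1582), and 74.4 and 49.5 in the double libraries, against 11.9, 11.6 and 2.5 in wild type. That of col-88 was 505 and 658 in the emr-1(gk119) libraries, 105 and 102 in lem-2(tm1582), and 228 and 166 in the double libraries, against 22.7, 46.4 and 9.28 in wild type. Both were separated into the same 4 steps as col-73, and their log2 changes in emr-1(gk119) were 4.73 ± 0.58 and 4.67 ± 0.55.

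The same 4 steps were seen at other levels in col-104, col-38 and col-14. Coverage of col-104 was 835 and 758 in the emr-1(gk119) libraries, 194 and 154 in lem-2(tm1582), and 536 and 436 in the double libraries, against 40.0, 66.8 and 12.5 in wild type. For col-38 it was 1148 and 1617 in the emr-1(gk119) libraries, 355 and 316 in lem-2(tm1582), and 968 and 710 in the double libraries, against 97.2, 100 and 26 in wild type. In col-14 it was 764 and 1125 in the emr-1(gk119) libraries, 296 and 233 in lem-2(tm1582), and 710 and 537 in the double libraries, against 63.9, 97.4 and 20.1 in wild type. Each of these 3 genes was called higher both in emr-1(gk119) and in the double libraries, and the lowest library of each was wild-type replicate 3.

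Among the genes of highest coverage, col-12 had 2557 and 3073 in the emr-1(gk119) libraries, 1199 and 968 in lem-2(tm1582), and 1551 and 1268 in the double libraries, against 403, 523 and 155 in wild type. Its neighbour col-13 followed it within 8.54% in every library, with 2538 and 2977 in the emr-1(gk119) libraries, 1192 and 962 in lem-2(tm1582), and 1539 and 1183 in the double libraries, against 394, 479 and 157 in wild type. A contrast was col-139, of similar mean coverage, which had 1172 and 1295 in the emr-1(gk119) libraries, 1237 and 1346 in lem-2(tm1582), and 1051 and 842 in the double libraries, against 951, 1370 and 670 in wild type. All its mutant libraries lay within the wild-type range, although the double libraries lay below the other mutants. It was called in no comparison, and neither were col-129 and col-160.

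Over the 34 genes called higher in emr-1(gk119), wild-type replicate 3 was the lowest wild-type library in 28, and the mean of wild-type replicates 1 and 2 was a median of 2.79 times its value. Of the 9 genes called lower, it was the highest wild-type library in 7. The third wild-type library thus deviated from the others in the opposite direction to emr-1(gk119) in most of these genes. They were called against a wild-type mean that includes this library, so part of this can follow from the choice of genes. Without it the median change of the 51 genes in emr-1(gk119) was 1.92 rather than 2.30.

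**Figure D3:**
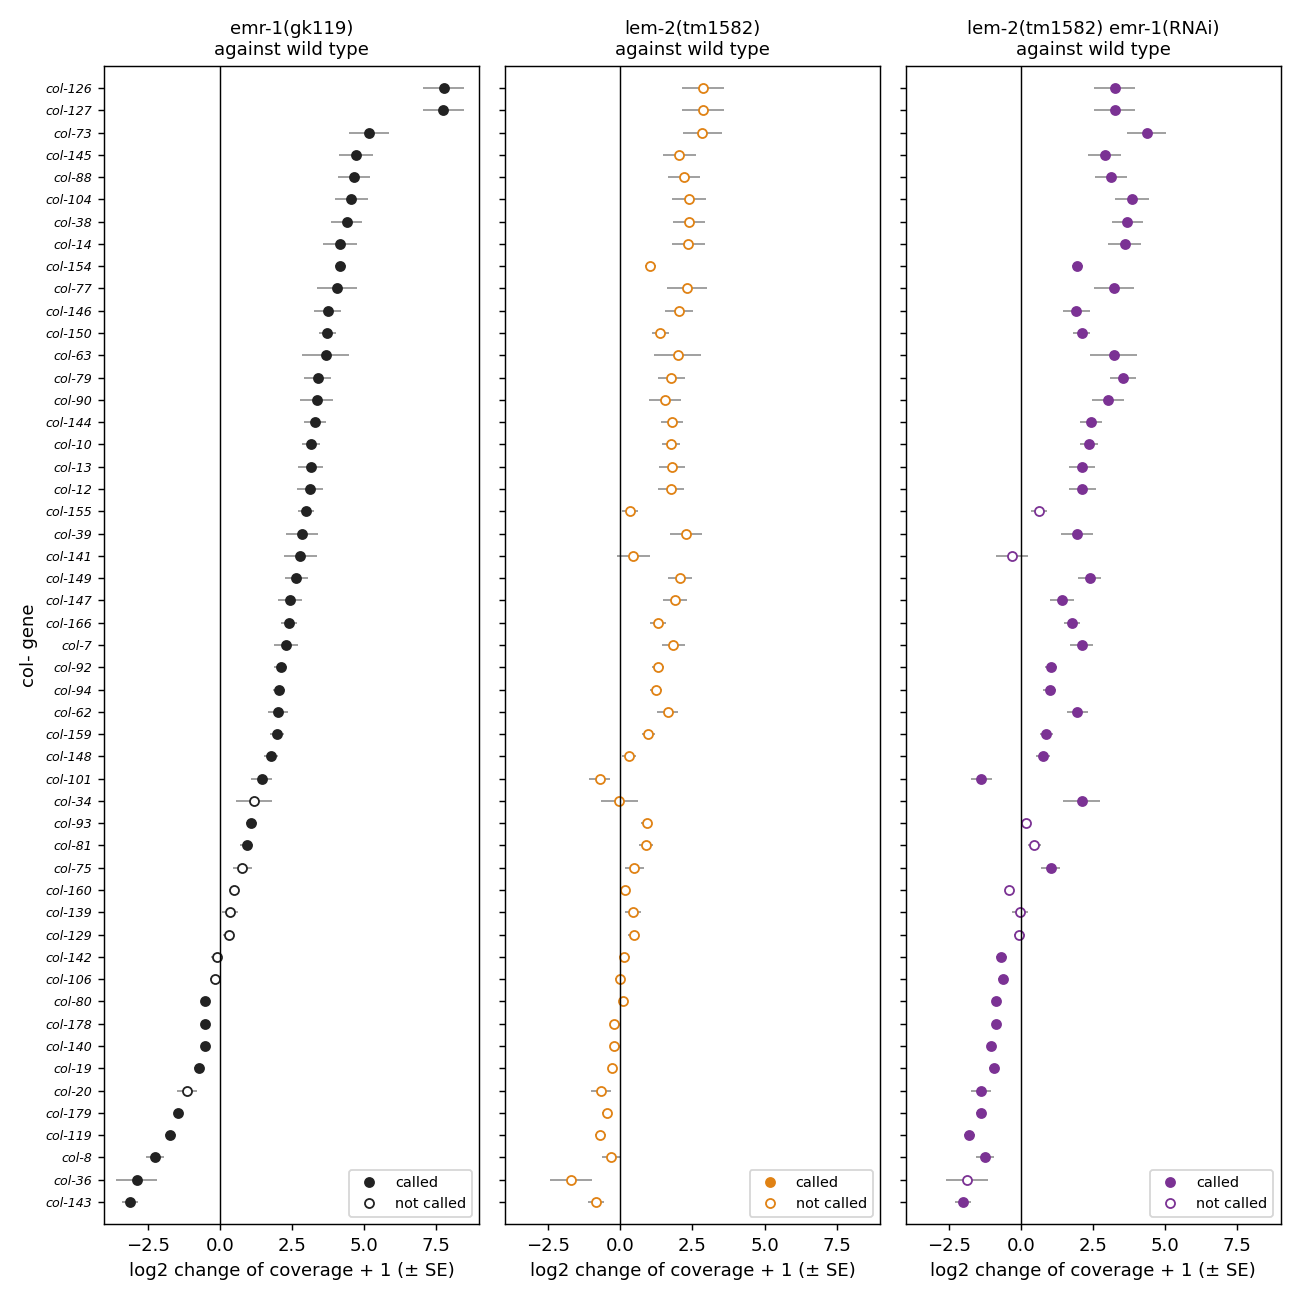
Log2 change of coverage + 1 against wild type with its standard error for the 51 col- genes, in the same order in each panel. Filled points, those called by limma, number 43 for emr-1(gk119), 0 for lem-2(tm1582) and 43 for the double libraries, and the lem-2(tm1582) points lie between 2.87 and -1.71.

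In lem-2(tm1582) no collagen gene was called in either direction by limma, where 0.0358% of all loci were called higher and 0.0102% lower. An unadjusted p under 0.05 was reached by 35 of the 51 genes, 31 of them higher and 4 lower, against 15.7% of all loci. The median change was 1.23, and 27 genes had a log2 change of at least 1. Both lem-2(tm1582) libraries lay above every wild-type library in 31 genes and below every one in 9, against 20.8% and 12.0% of all loci. The calls depended on the settings. With a coverage minimum of 5, 4 genes were called higher, where 93 of all 13214 loci then tested were. Without wild-type replicate 3, 2 genes were called higher, col-39 and col-149, where 10 of all 19564 loci were. Coverage of col-39 was 426 and 537 in the emr-1(gk119) libraries, 323 and 313 in lem-2(tm1582), and 269 and 238 in the double libraries, against 106, 100.9 and 25.5 in wild type. The last value of wild type set most of its spread, and both lem-2(tm1582) libraries lay well above all 3.

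The largest values in lem-2(tm1582) were those of col-127 and col-126 (2.87), col-73 (2.84), col-38 (2.38) and col-104 (2.38), none of them called. At the other end were col-36 (-1.71), col-143 (-0.83), col-101 (-0.72), col-119 (-0.69) and col-20 (-0.68), again without a call. For the 34 genes called higher in emr-1(gk119), the median change in lem-2(tm1582) was 1.78, with values from -0.72 to 2.87.

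In the double libraries, 31 genes were called higher and 12 lower, where 26.4% of all loci were called higher and 12.0% lower. The median change was 1.42 and the range -2.0 to 4.36. Without wild-type replicate 3, 30 were called higher and 11 lower, of which 29 and 11 were among those called with all libraries. Leaving out the first double library left 12 called higher and 7 lower. Both double libraries lay above every wild-type library in 32 genes and below every one in 14, against 41.8% and 19.2% of all loci. The highest changes were those of col-73 (4.36 ± 0.68), col-104 (3.85 ± 0.58), col-38 (3.69 ± 0.55), col-14 (3.59 ± 0.58) and col-79 (3.53 ± 0.46).

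Coverage of col-79 was 72.4 and 102 in the emr-1(gk119) libraries, 28.4 and 26 in lem-2(tm1582), and 95.2 and 93.6 in the double libraries, against 11, 10.7 and 3.00 in wild type. The double libraries were within the range of emr-1(gk119), unlike in col-126. In col-34, at lower coverage, the values were 7.44 and 29.4 in the emr-1(gk119) libraries, 8.44 and 4.00 in lem-2(tm1582), and 23.4 and 36.2 in the double libraries, against 9.22, 7.44 and 3.00 in wild type. The emr-1(gk119) libraries of this gene spanned most of the whole range, and it was called higher only in the double libraries, and there not without wild-type replicate 3.

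One gene was called in opposite directions. Coverage of col-101 was 309 and 345 in the emr-1(gk119) libraries, 80.6 and 63.1 in lem-2(tm1582), and 32.9 and 60.9 in the double libraries, against 108, 85.1 and 180 in wild type. It lay above wild type in emr-1(gk119) (1.46 ± 0.36, called higher) and below it in the double libraries (-1.38 ± 0.36, called lower). The gene col-155, called higher in emr-1(gk119), had 1094 and 1340 in the emr-1(gk119) libraries, 209 and 178 in lem-2(tm1582), and 236 and 234 in the double libraries, against 150, 107 and 220 in wild type. The emr-1(gk119) libraries of col-155 stood apart from all 7 others. Its change in the double libraries was 0.62, not called, and 0.88 without wild-type replicate 3, called higher.

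Set against lem-2(tm1582), the double libraries had 1 col- gene called higher and 9 called lower, where 10.2% of all loci were called higher and 6.27% lower. The gene called higher was col-154, by 0.91 ± 0.21, with 436 and 321 in the double libraries against 226 and 174 in lem-2(tm1582). The largest values, 2.13 for col-34, 1.76 for col-79, 1.52 for col-73, 1.48 for col-104 and 1.46 for col-90, were not called, at standard errors of 0.51 to 0.74. Coverage of col-90 was 49.9 and 88.1 in the emr-1(gk119) libraries, 19.8 and 16.8 in lem-2(tm1582), and 67.6 and 39.6 in the double libraries, against 7.44, 10.2 and 2.00 in wild type. Lower were col-143 (-1.17 ± 0.30), col-119 (-1.11 ± 0.20), col-80 (-0.95 ± 0.12), col-179 (-0.94 ± 0.19), col-142 (-0.81 ± 0.21), col-140 (-0.80 ± 0.13), col-93 (-0.73 ± 0.20), col-19 (-0.66 ± 0.16) and col-178 (-0.62 ± 0.14). Coverage of col-80 was 313 and 327 in the emr-1(gk119) libraries, 471 and 494 in lem-2(tm1582), and 258 and 241 in the double libraries, against 433, 482 and 452 in wild type, so lem-2(tm1582) overlapped wild type and the other groups lay below both. Leaving out 1 of the 4 libraries leaves a group of 1, so only the changes are given here. They then ran from -1.48 to -0.86 for col-143, from -1.13 to -1.08 for col-119 and from -0.72 to -0.59 for col-19. Both double libraries lay above both lem-2(tm1582) libraries in 22 genes and below both in 21, against 41.9% and 21.8% of all loci. The median change of the 51 genes was 0.27, close to the 0.25 of all loci.

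The interaction term, the difference of the double libraries from lem-2(tm1582) minus that of emr-1(gk119) from wild type, asks whether the change that goes with emr-1 differed with lem-2. It also compares a deletion with RNAi, and the kind of depletion and the lem-2 background cannot be told apart. Its median was -2.09 over the collagen genes and 0.10 over all loci, and 7 genes were called lower and none higher, where 0.184% and 0.261% of all loci were called. The unadjusted p was under 0.05 for 39 of the 51 genes, 36 lower and 3 higher, and for 19.0% of all loci. The 7 genes were col-126, col-127, col-154, col-150, col-92, col-93 and col-94. The last 3 are neighbours on chromosome III. Coverage of col-92 was 749 and 842 in the emr-1(gk119) libraries, 442 and 463 in lem-2(tm1582), and 420 and 337 in the double libraries, against 194, 227 and 140 in wild type.

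**Figure D4:**
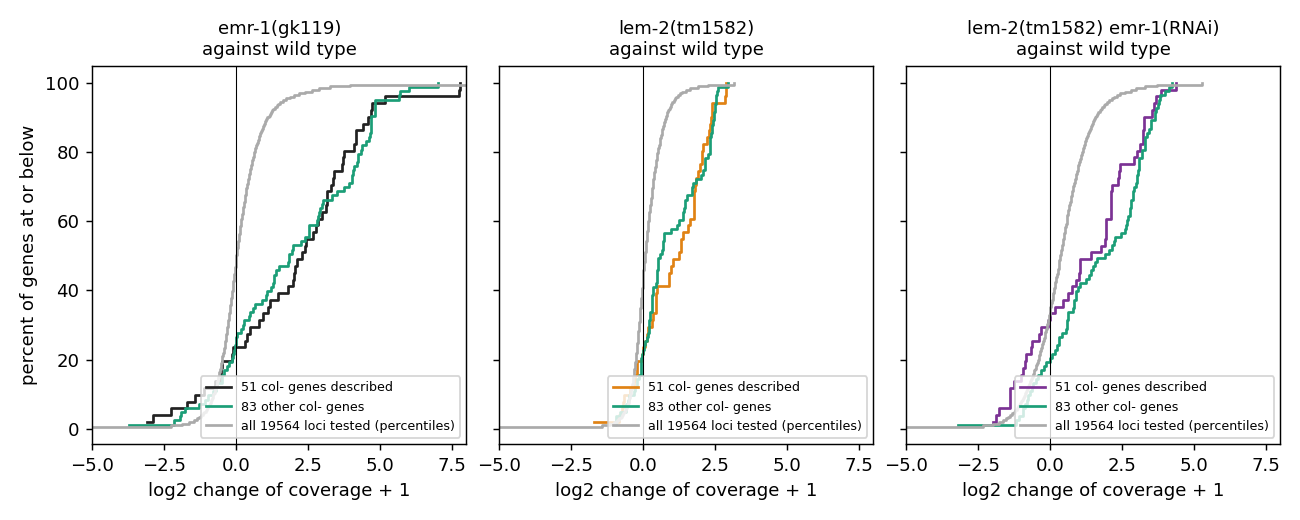
Cumulative distributions of the log2 change against wild type, for the 51 col- genes described, the 83 other col- genes tested and all 19564 loci tested. Both collagen curves lie to the right of all loci over most of their range, with medians of 2.30 and 1.84 in emr-1(gk119) against 0.01 for all loci.

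The other col- genes of the table, 104 in number and 83 of them tested, were also called higher more often than lower against wild type. In emr-1(gk119) there were 48 called higher and 8 lower with a median of 1.84, against 10.4% and 6.27% of all loci. In the double libraries 49 were called higher and 8 lower with a median of 1.90, against 26.4% and 12.0% of all loci. In lem-2(tm1582) limma called none, the median was 0.60 and 39 had an unadjusted p under 0.05. Between the double libraries and lem-2(tm1582), 8 were called higher and 1 lower with a median of 0.73. These were 9.64% and 1.2% of the genes tested, against 10.2% and 6.27% of all loci, so the share called higher was near that of all loci. The interaction was called lower in 2 of the 83 and higher in none by limma, where 0.184% of all loci were called lower. At an unadjusted p under 0.05, 33 were lower and 8 higher, against 19.0% of all loci in either direction. No test of a difference from the 52 genes was made, since these were proposed with their values in view.

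Many of the genes sit side by side in the genome. There were 18 pairs of neighbours within 10000 bases, which took in 32 of the 52 genes, and 17 pairs had both members tested. In emr-1(gk119) both members changed in the same direction by value in 14 pairs. Of the 51 genes, 39 had a positive and 12 a negative change there, so many pairs of any genes would share a direction. The 14 pairs include col-126 with col-127, of near-identical coverage, and the overlapping col-159 with col-160. Whether neighbours were more alike than other pairs was not tested. The 3 exceptions were col-20 and col-73, col-39 and col-80, and col-141 and col-142.

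The pair col-20 and col-73 lies on chromosome II, 1306 bases apart on the same strand, with a correlation of -0.93 over the 9 libraries. In emr-1(gk119) the changes were -1.13 and 5.18, and in the double libraries -1.39 and 4.36. In the run of col-141, col-142 and col-143 on chromosome V, the changes in emr-1(gk119) were 2.79, -0.10 and -3.10. Coverage of col-141 was 35.4 and 54.7 in the emr-1(gk119) libraries, 7.25 and 8.61 in lem-2(tm1582), and 1.94 and 8.33 in the double libraries, against 6.72, 2.67 and 8.75 in wild type. Both emr-1(gk119) libraries of col-141 lay above all others, whereas those of col-143 lay below all others.

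The run of col-144, col-145 and col-10 was more even, with changes of 3.30, 4.73 and 3.16 in emr-1(gk119) and correlations of 0.99 and 0.98 between neighbours. The pair col-7 and col-62, 529 bases apart on opposite strands of chromosome I, had changes of 2.30 and 2.02. The annotated models of col-159 and col-160 overlap by 1196 bases on the same strand, so their values (1.99 and 0.50) are uncertain. In all, 21 of the 52 gene models overlap a model of another protein-coding gene, mostly on the other strand, and the library kit kept no strand.

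**Figure D5:**
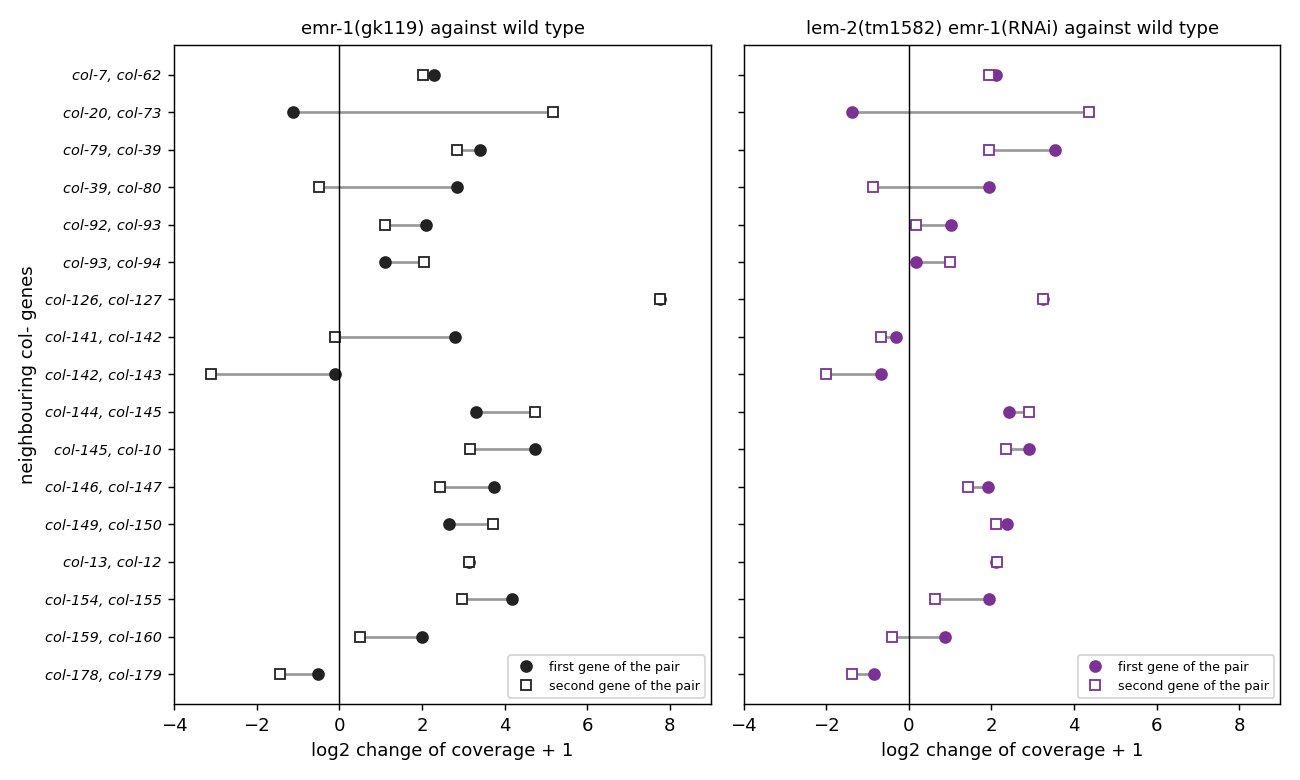
Log2 change of coverage + 1 against wild type for both genes of each of the 17 neighbouring pairs tested, joined by a line, in emr-1(gk119) (left) and in the double libraries (right). The lines of col-20 with col-73 and of col-39 with col-80 cross 0 in both panels.

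Most of the cuticle collagens with body-shape names were called higher too. The 6 furrow collagens (dpy-2, dpy-3, dpy-7, dpy-8, dpy-9 and dpy-10) form the ring-shaped furrows of the cuticle. All were called higher in emr-1(gk119) and in the double libraries, where 10.4% and 26.4% of all loci were. Their medians were 2.25 and 3.62. In lem-2(tm1582) limma called none, with a median of 1.74, and all 6 had an unadjusted p under 0.05. Coverage of dpy-7 was 25 and 29.7 in the emr-1(gk119) libraries, 14.9 and 16.7 in lem-2(tm1582), and 76.9 and 61.2 in the double libraries, against 4.17, 4.33 and 2.5 in wild type. In this gene the double libraries were highest, whereas emr-1(gk119) had the highest mean in 34 of the 51 col- genes. Of these furrow collagens 5 were also called higher in the double libraries against lem-2(tm1582), with a median of 1.83. The share of all loci called higher there was 10.2%.

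Of 16 other body-shape collagens, 13 were called higher in emr-1(gk119), against 10.4% of all loci, and 14 in the double libraries, against 26.4%. Their medians were 3.54 and 3.70. By limma none was called in lem-2(tm1582), where the median was 2.25 and 12 had an unadjusted p under 0.05. Neither dpy-14 (-0.11 and 0.05) nor dpy-17 (0.29 and 0.36) was called in emr-1(gk119) or in the double libraries, and bli-1 (1.31 and 2.56) was called in the double libraries alone. Coverage of lon-3, a collagen that sets body length, was 306 and 259 in the emr-1(gk119) libraries, 50.4 and 60.4 in lem-2(tm1582), and 315 and 242 in the double libraries, against 15.6, 13.7 and 5.28 in wild type. Both emr-1(gk119) and the double libraries lay far above the rest. The changes in the double libraries were 4.59 for lon-3, 4.33 for sqt-2, 3.96 for dpy-13 and 3.94 for dpy-4. None of the 3 collagens of basement membranes (emb-9, let-2 and cle-1), which are not cuticle proteins, was called by limma in emr-1(gk119), where 1 had an unadjusted p under 0.05, and emb-9 (0.82) and let-2 (0.73) were called higher in the double libraries, though not without wild-type replicate 3.

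Of 12 genes that make, trim and cross-link collagens, 7 were called higher in emr-1(gk119) and 9 in the double libraries, against 10.4% and 26.4% of all loci. In these groups limma called none of the 12 lower, with none lower at an unadjusted p under 0.05. The counts called higher were 4 and 8 without wild-type replicate 3. The oxidase gene bli-3 was called in neither group (0.61 and 0.56), and the protease gene bli-4 only in emr-1(gk119) (0.53, against -0.07 in the double libraries). Coverage of phy-2, a subunit of the prolyl hydroxylase that modifies collagen chains, was 148 and 89.6 in the emr-1(gk119) libraries, 34.9 and 31.1 in lem-2(tm1582), and 125.8 and 82.1 in the double libraries, against 23.6, 18.8 and 13.9 in wild type. The other subunit gene, dpy-18, had changes of 1.97 in emr-1(gk119) and 1.64 in the double libraries. Both were called higher in these groups.

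Of 15 genes that act in molting, 8 were called higher in emr-1(gk119), and 13 in the double libraries, and 7 were higher in the double libraries than in lem-2(tm1582). The shares of all loci called higher in these 3 comparisons were 10.4%, 26.4% and 10.2%. Without wild-type replicate 3 the counts against wild type were 5 and 13. Coverage of wrt-10, a hedgehog-related gene, was 127 and 88.2 in the emr-1(gk119) libraries, 35.5 and 40.8 in lem-2(tm1582), and 280 and 203 in the double libraries, against 11.9, 14 and 5.17 in wild type. Like the furrow collagens, wrt-10 was highest in the double libraries. Of 7 cuticulins tested, which are non-collagen cuticle proteins, 2 were called higher in emr-1(gk119) and 4 in the double libraries, with the same shares of all loci beside them.

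Among 16 regulators of the epidermis and of developmental timing, emr-1(gk119) had 2 called higher and 1 lower, or 12.5% and 6.25%, close to the 10.4% and 6.27% of all loci. The double libraries had 8 higher and 3 lower, against 26.4% and 12.0% of all loci, and 6 and 3 without wild-type replicate 3. Coverage of lin-42, a period-like gene whose mRNA cycles with the molts, was 14.8 and 42.8 in the emr-1(gk119) libraries, 8.69 and 8.26 in lem-2(tm1582), and 26 and 21.3 in the double libraries, against 3.61, 3.91 and 1.5 in wild type. That of lin-41, which blocks the switch to adult fates in earlier larvae and also acts in oocytes, was 30 and 31 in the emr-1(gk119) libraries, 37.2 and 46.6 in lem-2(tm1582), and 16.5 and 15.0 in the double libraries, against 68.0, 75.5 and 80.0 in wild type. The 2 genes thus moved in opposite directions. The other large changes in the double libraries were 2.16 for nhr-73 and 2.15 for bed-3. Unlike col-19, lin-29 was called higher in the double libraries (1.45), and it was not called in emr-1(gk119) (0.92). The gene nhr-23 was called lower in the double libraries (-0.86) and not called in emr-1(gk119) (0.20).

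Yolk and oocyte genes were lower than in wild type in emr-1(gk119) and in the double libraries. Adult age itself was not measured. The 6 vitellogenin genes, which the adult intestine transcribes to make yolk, were all called lower in emr-1(gk119) (median -3.43) and in the double libraries (median -1.40), and limma called none in lem-2(tm1582) (median -0.90), where 4 had an unadjusted p under 0.05. Of all loci, 6.27% were called lower in emr-1(gk119) and 12.0% in the double libraries, with all libraries in the fit. With wild-type replicate 3 left out, 6 yolk genes were called lower in emr-1(gk119) and 5 in the double libraries. Their summed coverage was 1767 and 1604 in the emr-1(gk119) libraries, 6881 and 7230 in lem-2(tm1582), and 4125 and 6228 in the double libraries, against 13078, 11449 and 17041 in wild type. It was highest in wild-type replicate 3, and it ordered the groups as col-119 did except that emr-1(gk119) lay below the double libraries. The 6 oocyte genes were likewise called lower in emr-1(gk119) (median -1.15) and in the double libraries (median -2.46), and their summed coverage was 940 and 990 in the emr-1(gk119) libraries, 1419 and 1726 in lem-2(tm1582), and 357 and 373 in the double libraries, against 2067, 2314 and 2118 in wild type.

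Of 6 epidermal markers, which include the collagen genes dpy-7, rol-6 and sqt-3, summed coverage was 412 and 740 in the emr-1(gk119) libraries, 306 and 296 in lem-2(tm1582), and 743 and 569 in the double libraries, against 149, 163 and 101.1 in wild type. The 3 collagen genes were called higher in emr-1(gk119) and in the double libraries, and none of the other 3 markers was. The epidermal regulators elt-1 (0.49 and 0.35) and elt-3 (0.09 and 0.45) were not called in either group, and lin-26 was called lower in the double libraries, though not without wild-type replicate 3. Coverage of lin-26 was 46.3 and 59.6 in the emr-1(gk119) libraries, 37.4 and 65.6 in lem-2(tm1582), and 38.9 and 39.3 in the double libraries, against 67.6, 80.6 and 58.6 in wild type. Summed coverage of 3 seam-cell markers was 70.6 and 44.2 in the emr-1(gk119) libraries, 111 and 107 in lem-2(tm1582), and 144 and 139 in the double libraries, against 91.0, 82.8 and 86.9 in wild type. None of the marker lists had a gene at 0 in all 9 libraries. Summed coverage of the 3 muscle markers was 476 and 638 in emr-1(gk119), 639 to 728 in lem-2(tm1582) and 685 to 924 in the double libraries, against 323 to 512 in wild type. Of these, unc-54 (0.87) and unc-15 (0.99) were called higher in the double libraries and unc-15 (0.86) in emr-1(gk119), or 1 and 0 genes without wild-type replicate 3. The 3 neuronal markers summed to 190 and 233 in emr-1(gk119), 257 to 266 in lem-2(tm1582) and 163 to 221 in the double libraries, against 253 to 305 in wild type, and snb-1 (-0.58) was called lower in the double libraries, though not without wild-type replicate 3. The 6 sperm markers summed to 1627 to 2935 and 3 intestinal markers to 1332 to 2745 over the 9 libraries. Most of the seam, neuronal, sperm and intestinal sums came from grd-10, snb-1, msp-19 and asp-1, respectively. Against wild type limma called 1 sperm marker higher in emr-1(gk119), though not without wild-type replicate 3. This was spe-9, with coverage of 1.5 to 5.17. No intestinal marker was called against wild type in any group, and none had an unadjusted p under 0.05 there. The part of adult age, of muscle and epidermal RNA content and of culture timing in the changes of the col- genes was not tested.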

How the data were processed

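RNA-seq of 9 whole-animal libraries was used. The authors aligned the reads with TopHat on genome release WS231 and read per-base coverage through SAMtools and Rsamtools. The deposited signal is coverage, computed as an exon median, quantile-normalized across libraries and summarized as the median exon of each transcript. The labels' groups were kept throughout. Here 49395 transcripts were averaged into 43898 loci, and 99.0% of loci received names from the Ensembl annotation of WBcel235, the build of the coordinates printed. Loci whose mean coverage was 1 or more were fitted on log2(coverage + 1) with limma 3.58.1 in R 4.3.3, with a mean-variance trend and all 9 libraries, two-sided, at a Benjamini-Hochberg adjusted p under 0.05. The study's own test was not used here. The code was tested on simulated data.

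The members and lists were chosen with earlier results of these data known. Values in every library are given for col-19, col-7, the 5 largest rises and falls of each comparison, the 5 highest means (col-127 by its difference from col-126) and, where the text singles out another gene, genes chosen after their values were seen (col-39, col-101, col-155, col-141, col-154 and col-92 among them). Other lists give up to 4 genes with the largest change in the double libraries, with lin-26, lin-29 and nhr-23 among further choices. Alternatives were pseudocounts of 0.1 and 5, no coverage minimum or 5, no trend, the 2 compared groups alone, a replicate block, repeated quantile normalization, the highest transcript of a locus and each library left out. Correlations of same-numbered libraries' deviations from their group means were -0.07 to 0.03, so the numbers were not taken as pairs. Sequences were not used here.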

Additional observations from a re-analysis of the deposited data

Results flagged for a closer look

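The interaction term of the limma fit was called lower in 7 genes, at an adjusted p under 0.05 over all loci tested. Of all loci, 0.184% were called lower. The genes were selected on the values of these same libraries, so the calls are a description. On the log2 scale the term was -7.39 for col-126, -7.38 for its neighbour col-127, of near-identical coverage, -3.26 for col-154, -3.0 for col-150, -2.38 for col-92, -2.29 for col-94 and -1.84 for col-93. In all 7 genes emr-1(gk119) lay above wild type. In col-126, col-127, col-154 and col-150 the mean of the double libraries exceeded that of lem-2(tm1582) by less. In col-92, col-94 and col-93 the double libraries lay below lem-2(tm1582), with log2 changes of -0.27, -0.24 and -0.73. For col-154 the libraries had 1628 and 1901 in the emr-1(gk119) libraries, 226 and 174 in lem-2(tm1582), and 436 and 321 in the double libraries, against 94.7, 88.2 and 107 in wild type. Coverage of col-150 was 224 and 118 in the emr-1(gk119) libraries, 34.4 and 28.7 in lem-2(tm1582), and 54.3 and 50.9 in the double libraries, against 11.4, 14.3 and 8.94 in wild type. In emr-1(gk119) the gene was deleted, whereas the double libraries came from RNAi and had emr-1 coverage of 135 and 73.5, so the kind of depletion and the lem-2 background cannot be told apart. The number of genes called changed with the library left out, mutant or wild type. For wild type, 1 was called lower without replicate 1, 1 without replicate 2 and 12 without replicate 3. Leaving out a mutant library leaves a group of 1, so only the changes are given. With each library left out in turn, the term ran from -7.97 to -6.63 for col-126 and from -2.0 to -1.68 for col-93.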

How the results depend on the processing

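Over the named genes and the counts and medians of the col- genes, 1697 values under the alternatives were taken as kept and 26 as moved. A gene's value was kept within 1 SD. A count could change and still be taken as kept, as when the 9 called lower in emr-1(gk119) became 6 without the trend. Small changes could also change sign. With single libraries left out, that of col-126 between the double libraries and lem-2(tm1582) ran from -0.14 to 0.90. In emr-1(gk119), the 34 genes called higher became 14 and the 9 called lower 3 with the 2 compared groups alone; the median of 2.30 became 2.42 with a pseudocount of 0.1, 2.19 with 5, 2.20 without a coverage minimum and 2.42 with a minimum of 5. In lem-2(tm1582), where none was called, 1 was called higher without a minimum and 4 with a minimum of 5. Of all loci, 68 of 28132 and 93 of 13214 were called higher under these settings. The median of 1.23 became 1.13 without a minimum and 1.08 with a pseudocount of 5. In the double libraries the median of 1.42 became 1.78 with a pseudocount of 0.1, 1.22 without a minimum, 1.84 with a minimum of 5 and 1.27 with repeated quantile normalization, which took the median of all loci from 0.35 to -0.01 and the calls over all loci from 5164 higher and 2353 lower to 3369 and 3349. Between the double libraries and lem-2(tm1582), 2 genes were called higher with a pseudocount of 5, 2 with repeated normalization, 3 with a minimum of 5 and 3 with the compared groups alone, and the median of 0.27 became 0.14 without a minimum, 0.09 with a minimum of 5 and 0.09 with repeated normalization. For the interaction, 3 were called lower with a pseudocount of 0.1, 17 with a minimum of 5 (and 1 higher) and 16 with repeated normalization, with medians of -2.21 with a minimum of 5 and -2.18 with repeated normalization.

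With the replicate block, which the numbers do not justify as a pairing, the calls were 32 higher with 5 lower in emr-1(gk119) (median 1.92), none in lem-2(tm1582) (median 1.03), 29 and 9 in the double libraries (median 1.20), 5 and 8 between the double libraries and lem-2(tm1582), and 2 lower in the interaction (median -1.89). With each library left out in turn, the lone library left in a group is assumed to vary like the others. The counts were then 25 to 33 higher and 5 to 8 lower in emr-1(gk119) (medians 1.92 to 2.42), 0 to 2 higher in lem-2(tm1582) (medians 1.03 to 1.29), 12 to 30 higher and 7 to 12 lower in the double libraries (medians 1.20 to 1.73), 0 to 1 higher and 0 to 2 lower between the double libraries and lem-2(tm1582) (medians -0.13 to 0.32), and 0 to 12 lower in the interaction (medians -2.30 to -1.89). Without lem-2(tm1582) replicate 2 no locus at all was called between the double libraries and lem-2(tm1582). Depth is unknown, and genes near a coverage of 1, such as col-36 and col-75, moved most with the pseudocount.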
